A study of Mus musculus with 8 samples.

Results

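Sites of DDX5 on RNA in the small intestine were compared with those in the colon, position by position and gene by gene. The small intestine list held 1278 sites on 467 genes. The colon mAb list held 16455 called peaks on 5191 genes, of which 201 peaks, or 1.22%, on 138 genes, or 2.66% of the genes, passed the same cutoff. Here a called peak is any interval in a deposited list, and a site is a peak with −log10 p above 3 and log2 fold above 3 for the immunoprecipitate (IP) over its size-matched input. Sites were matched when they shared at least 1 base on the same strand, and genes when each list had a site on them. Together these were 1479 sites on 566 genes, out of 26879 peaks in the lists of the series that carry a sample label.

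The libraries were eCLIPseq of epithelial cells from C57BL/6 mice labelled wild type, freed from the gut by EDTA. In the series of 8 samples, the small intestine had 2 CLIP and 2 input samples from 8-week-old females, merged into 1 list, and the colon had 1 CLIP and 1 input sample for each of the antibody samples mAb and rAb. For the colon, the growth protocol gave an age of 120 days and the genotype Apcfl/+ CDX2Cre, in which Cre is driven by the Cdx2 promoter of the intestinal epithelium, whereas the genotype label gave wild type. All CLIP samples carried the same DDX5 catalogue number, and what sets mAb apart from rAb is not known here. The small intestine followed a paired-end protocol and the colon a single-end protocol, so tissue, protocol, age and peak selection cannot be told apart, and no test was run between the lists. Intervals below are exact binomial 95% intervals, which cover counting error only. Those over sites or peaks treat the peaks of 1 gene as independent, which they are not.

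DDX5 is a DEAD-box RNA helicase of the nucleus that remodels RNA and RNA-protein complexes. It takes part in transcription, pre-mRNA splicing, processing of primary microRNAs and ribosome assembly. eCLIP links protein to RNA with UV light in the intact cell, so that fragments of introns, which are lost from mature mRNA, can be recovered beside those of exons.

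The labelled tissue was checked against markers. Of 13 epithelial markers, 7 had a site in the small intestine and 12 had a called peak in the colon, of which 2 held a site. None of 19 immune cell markers and none of 23 markers of stroma, muscle, endothelium and nerve had a site in either list, and 6 and 8 of them had a called colon peak. Xist, the RNA that silences an X chromosome in females, had 12 sites in the small intestine and was absent from the mAb and rAb lists, although the methods named female mice for the epithelial eCLIPseq. The Y-linked genes Ddx3y and Uty had 3 and 1 called mAb peaks, with at most 4 IP reads and none past the cutoff. The sex of the colon mice is not in the labels, and its part in the differences below was not tested.

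The sequences that follow are shown because both lists marked the same bases. They are read from GRCm38 on the strand of the transcript, and capitals mark the bases covered by a site in each list. Hnrnpa3, Azin1, Errfi1 and Krt8 lie in the first intron of their transcripts, at chr2:75659502-75659595 on the plus strand, chr15:38518812-38518906 on the minus strand, chr4:150855276-150855430 on the plus strand and chr15:102002343-102002426 on the minus strand. Neat1 is the exon of a non-coding RNA, at chr19:5834453-5834535 on the minus strand.
Hnrnpa3: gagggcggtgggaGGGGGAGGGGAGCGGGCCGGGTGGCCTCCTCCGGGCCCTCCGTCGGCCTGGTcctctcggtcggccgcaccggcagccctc
Azin1: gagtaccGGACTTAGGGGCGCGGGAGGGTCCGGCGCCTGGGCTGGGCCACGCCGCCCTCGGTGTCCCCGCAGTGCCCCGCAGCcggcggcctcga
Errfi1: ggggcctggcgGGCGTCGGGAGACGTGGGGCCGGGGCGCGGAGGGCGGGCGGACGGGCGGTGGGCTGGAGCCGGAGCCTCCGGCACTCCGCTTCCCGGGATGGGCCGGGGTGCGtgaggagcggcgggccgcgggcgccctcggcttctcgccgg
Krt8: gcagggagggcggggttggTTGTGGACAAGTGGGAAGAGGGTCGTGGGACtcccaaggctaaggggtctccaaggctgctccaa
Neat1: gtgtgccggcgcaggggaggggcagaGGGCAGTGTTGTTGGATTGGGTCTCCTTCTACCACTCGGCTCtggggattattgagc

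Positions marked in both tissues were few. A total of 48 of 1278 small intestine sites (3.76%, interval 2.78 to 4.95) overlapped 38 of 201 colon mAb sites (18.9%, interval 13.7 to 25.01), in 50 pairs on 26 genes. Many more small intestine sites, 457 (35.8%, interval 33.1 to 38.5), overlapped a called colon peak, whether or not it was enriched. Called colon peaks at such positions passed the cutoff in 38 of 376 cases (10.1%, interval 7.25 to 13.6), against 163 of 16079 elsewhere (1.01%, interval 0.865 to 1.18). Among called peaks with at least 10 IP reads, the fewest that any colon site had, these shares were 37 of 133 (27.8%, interval 20.4 to 36.3) and 145 of 959 (15.1%, interval 12.9 to 17.5). As a ratio the shares were closer above this floor, though not in percentage points. The floor does not equalise reads between the groups. The intervals did not overlap in either comparison, but they treat peaks as independent. Peaks of 1 gene are not, and 8 of the 38 lay on Neat1, so no inference is drawn from the intervals.

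Most colon peaks under a small intestine site were weakly enriched or thinly covered. Their median log2 fold was 1.56, against 1.15 over all called mAb peaks, with 75 of 376 below 0, 66 from 0 to 1, 177 from 1 to 3 and 58 above 3. Of the 58, 20 missed the cutoff on −log10 p. Reads could be traced for 291 of these peaks, and 158 of them had fewer than 10 IP reads. Fewer reads than any colon site had were thus common at the positions below the cutoff. Over all 485 pairs of a small intestine site and a called colon peak, the log2 folds had Spearman's rho of 0.486 and Pearson's r of 0.440. These are given as a description, since pairs on 1 gene share their transcript and each fold its libraries. Over the 50 pairs of sites, rho was 0.225, and the small intestine value was higher in 37.

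**Figure D1:**
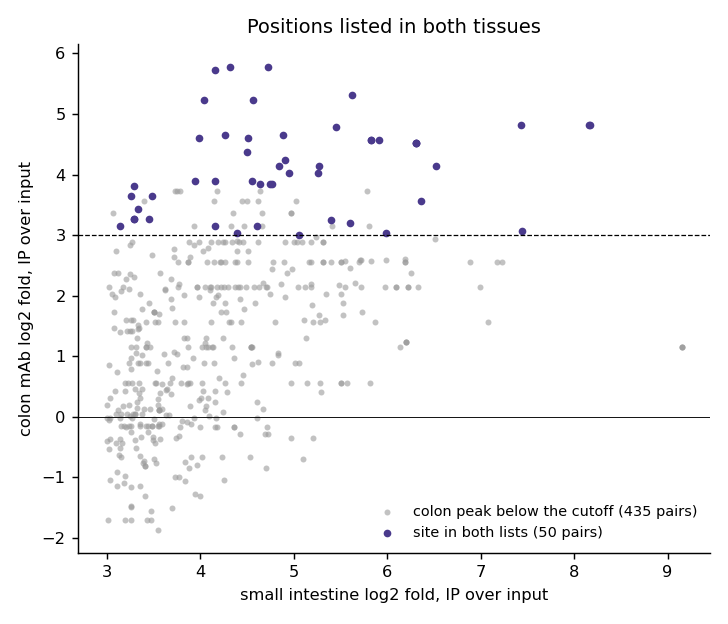
Each point is a small intestine site and a called colon mAb peak that overlap, with the log2 fold of IP over input in the small intestine on the x axis and in the colon on the y axis. The dashed line is the cutoff of 3. The 50 purple points passed in both lists, and the 435 grey points, which form bands where few reads allow few values, did not pass in the colon.

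The shared positions lay often in first introns, in sequence rich in G and C. Of the 38 overlapping colon sites, 19 were in a first intron (50%, interval 33.4 to 66.6), on 15 genes, against 38 of the 163 other colon sites (23.3%, interval 17.1 to 30.6) and 11.3% of all called mAb peaks. Of the 48 overlapping small intestine sites, 25 were in a first intron (52.1%, interval 37.2 to 66.7), against 332 of the other 1230 (27.0%, interval 24.5 to 29.6). Coding sequence held 3 of the 38 (7.89%) and 3 of the 48 (6.25%), against 27.0% of the other colon sites and 32.8% of the other small intestine sites. Exons of non-coding transcripts held 12 of the 38, of which 8 were in Neat1. Without Neat1, 19 of 30 colon sites and 25 of 39 small intestine sites were in a first intron.

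Base composition followed the same split. Median GC content was 71.5% at overlapping colon sites and 72.2% at overlapping small intestine sites, against 55.6% and 59.3% at the other sites and 56.0% over all called mAb peaks. A run of G letters was sought in the 150 bases centred on each site, as 4 runs of at least 3 G with 1 to 7 bases between them. It was found at 14 of 38 overlapping colon sites (36.8%, interval 21.8 to 54.0), 9 of 163 others (5.52%, interval 2.56 to 10.2) and 4.55% of all called mAb peaks. Called mAb peaks within 1000 bases of a transcript start, where 18 of the 38 lay, had a median GC content of 63.0% and the pattern at 8.43%. In the small intestine the pattern was found at 19 of 48 overlapping sites (39.6%, interval 25.8 to 54.7) and 14.7% of the others. On the opposite strand of the same windows it was at 10.5% of overlapping colon sites, 8.33% of overlapping small intestine sites and 1.98% of all called mAb peaks. The stretches of Hnrnpa3 and Errfi1 printed above hold the pattern, and those of Azin1, Krt8 and Neat1 do not. A match describes letters, and no G-rich structure was measured.

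**Figure D2:**
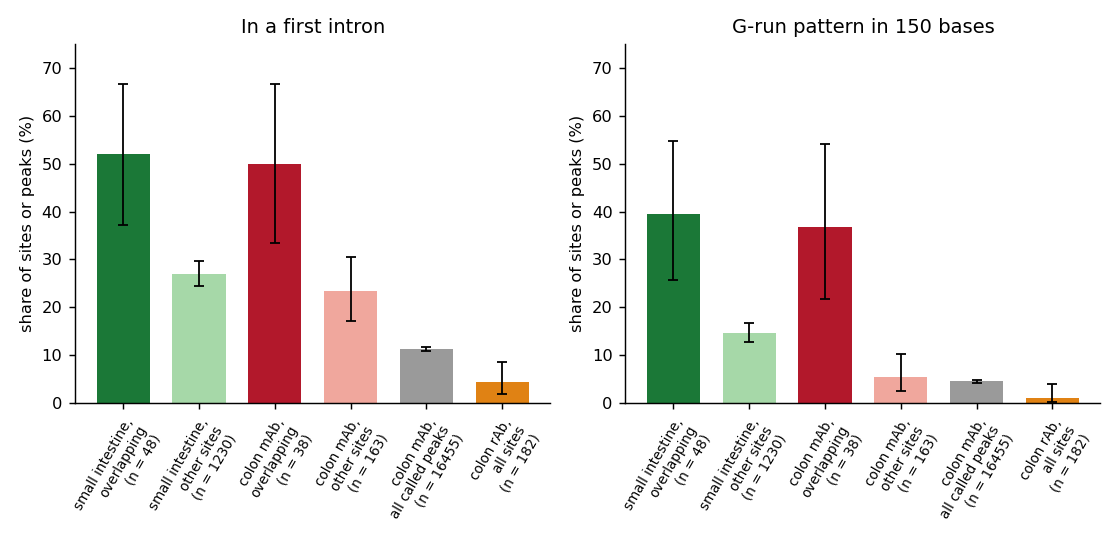
Share of sites or called peaks in a first intron (left) and with the G-run pattern in a 150-base window on the transcript strand (right), in percent, by list and by overlap with a site of the other tissue. Error bars are exact binomial 95% intervals. The overlapping sites stand at 52.1% and 50% on the left and 39.6% and 36.8% on the right, and the colon rAb sites at 4.40% and 1.10%.

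The rAb sample of the colon had called peaks at some of these positions and few sites. Of the 38 overlapping mAb sites, 17 overlapped a called rAb peak and 2 an rAb site, whereas of the 163 other mAb sites 106 overlapped a called rAb peak and 74 an rAb site. In the rAb list, 8 of 182 sites (4.40%, interval 1.92 to 8.48) were in a first intron and 2 (1.10%, interval 0.133 to 3.91) held the G-run pattern. Only 7 rAb sites overlapped 9 small intestine sites, on AA474408, Cdk8, Col6a6, Lars2 and Zfp791, and 1 of the 7 was in a first intron. The part of the antibody in this was not tested.

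Neat1, a nuclear RNA that builds paraspeckles, carried the most shared positions. The small intestine had 49 sites over its 20770 bases, with log2 folds from 3.14 to 6.88 and a median of 5.21. The colon mAb list had 30 called peaks, of which 12 were sites with log2 folds from 3.001 to 5.32 and 11 to 154 IP reads. The 8 colon sites that overlapped 9 small intestine sites lay between 3777 and 11010 bases from the start of the transcript. Upstream of the first of them the small intestine had a dense run of sites, where the colon had called peaks below the cutoff. The deepest shared position was 4565 to 4667 bases from the start, with 154 IP and 12 input reads and a log2 fold of 4.25 in the colon. The rAb list had 21 called peaks on Neat1 and no site.

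Krt8, a keratin of the intermediate filaments of simple epithelia, showed the first-intron pattern within 1 gene. All 4 colon sites lay in its first intron, 824 to 2105 bases from the start, and each overlapped 1 of the 4 small intestine sites there. Their colon log2 folds were 3.15 (12 IP and 2 input reads), 3.84 (29 and 3), 3.89 (10 and 1) and 3.89 (10 and 1), and those of the paired small intestine sites were 3.14, 4.63, 4.56 and 4.16. The other 5 small intestine sites were 4 in coding sequence and 1 in intron 7, with log2 folds from 3.64 to 3.94. The colon had 12 called peaks in the coding sequence of Krt8, none of them a site, and the 14 called peaks that were not sites had log2 folds from −1.55 to 2.89. The rAb list had 12 called peaks on Krt8 with a highest log2 fold of 1.07.

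**Figure D3:**
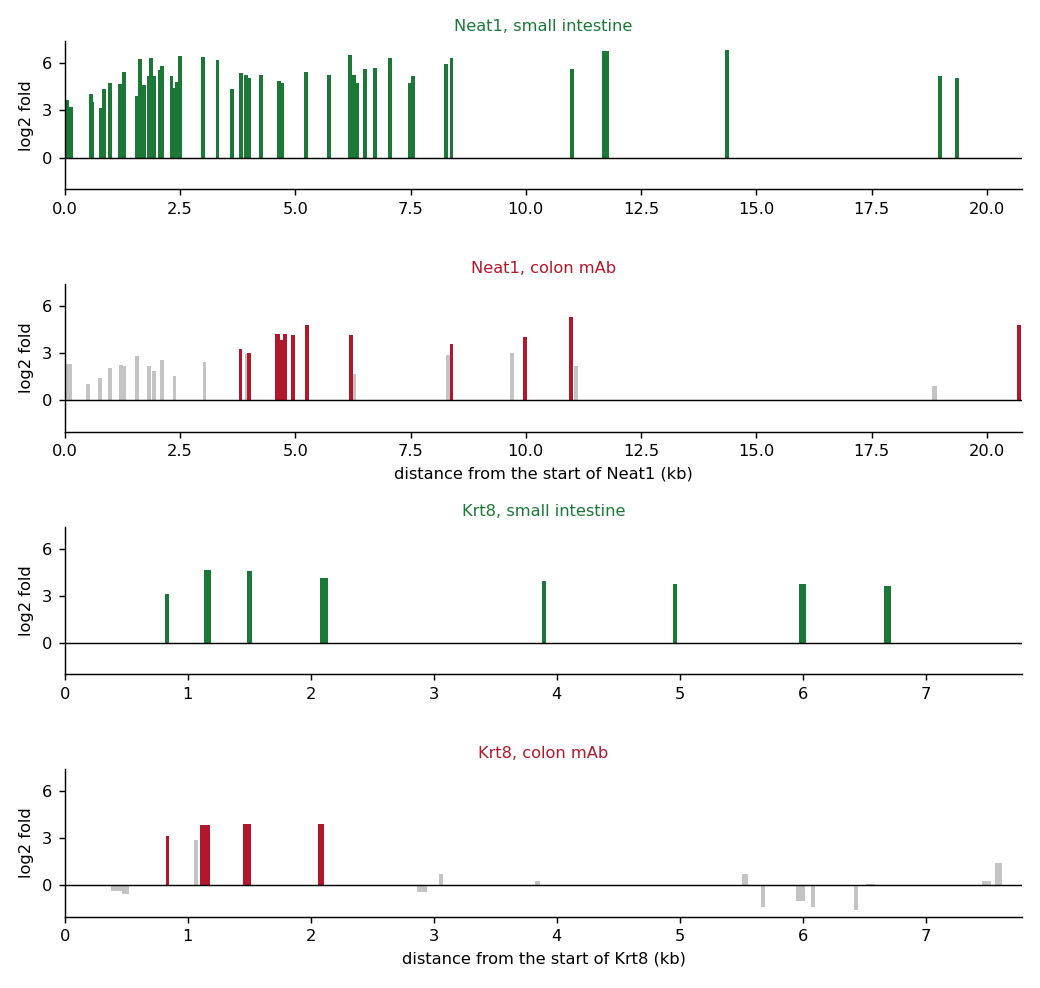
Called peaks along Neat1 and Krt8, with distance from the annotated start of the gene in kb on the x axis and deposited log2 fold of IP over input on the y axis. Coloured bars are sites (green for the small intestine, red for colon mAb) and grey bars are called colon peaks below the cutoff. In Krt8 the 4 red bars stand at the positions of the 4 green bars of the first intron.

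On genes, overlap was higher than on positions. Both lists had a site on 39 genes, which were 28.3% of the colon genes (interval 20.9 to 36.5) and 8.35% of the small intestine genes (interval 6.01 to 11.2). Of the 39, 34 were protein coding, and 26 held overlapping sites. The best site of a gene had a median log2 fold of 5.26 in the small intestine and 3.89 in the colon, and was higher in the small intestine for 35 of the 39. Among the exceptions were Errfi1, Me2 and Gm24270. In 38 of these genes the reads of the best colon site were traced, from 10 to 144 IP reads with a median of 17, and 32 of the 39 had only 1 colon site, so most shared genes rest on a single colon peak of few reads.

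Regulators of transcription and signalling formed the first set of shared genes. Ctnnb1 encodes β-catenin, which acts in Wnt signalling and adherens junctions. Its colon site in the 5′ UTR had 51 IP and 2 input reads and a log2 fold of 5.24, and overlapped 2 of its 14 small intestine sites, at 4.04 and 4.56.

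Immediate-early and stress genes were among them. Atf3, a stress-induced transcription factor, had 17 IP reads over 1 and a log2 fold of 4.65 in the colon and 4.88 in the small intestine, 67 bases being common to both sites. Fosb, a partner of Jun proteins, had 3.26 from 13 reads over 2 and 3.45. Nfe2l2, for the oxidative stress factor NRF2, had 3.15 from 12 reads over 2, with 4.16 and 4.61 in the small intestine. The colon values of Fosb and Nfe2l2 were the nearest of these to the cutoff. Errfi1, a feedback inhibitor of the EGF receptor, had 33 IP and 2 input reads and 4.61 in the colon, above the 3.99 and 4.51 of the small intestine. Rasa2, a Ras GTPase-activating protein, had 4.02 from 11 reads over 1 and 4.95. Ywhaz, a 14-3-3 adaptor protein, had 4.15 from 12 reads over 1, and 4.84 and 5.26. Zfhx3, a zinc finger homeobox factor, had the highest small intestine value of the shared genes, 8.17, at a 5′ UTR site where the colon had 4.81 from 19 reads over 1. Arid4a, a chromatin protein, had 144 IP and 9 input reads and 4.56, and 5.83 and 5.92 in the small intestine. The same reads and fold stood at each of its adjoining colon intervals. The overlaps were short, of 4, 9 and 12 bases at Arid4a and of 4, 6 and 17 bases at Zfhx3.

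The second set was of the cytoskeleton, metabolism and RNA binding. Actb, for β-actin, had a first-intron site at 3.81 from 19 reads over 2, with 3.28 at the same position and up to 6.19 elsewhere in the small intestine. Azin1, an inhibitor of antizyme in polyamine synthesis, had 4.65 from 17 reads over 1, and 4.26. Me2, a mitochondrial malic enzyme, had 5.73 from 36 reads over 1 in the colon and 4.15 in the small intestine. Hnrnpa3, an RNA-binding protein of nuclear RNA packaging, had 4.37 from 14 reads over 1, and 4.49.

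Several other shared positions were less secure. The Kcnip1 sites hold words of 20 bases that occur a median of 15 times in the genome, and the Kpna1 site of the small intestine words that occur 18 times. Gm24270, annotated as a microRNA gene, was at the cap of 400 for −log10 p in both lists, with 3.33 and 3.43, and its words occur 3 times. At Pcdh10 the intervals were of 10 to 12 bases. Short intervals also limit Arid4a and the small intestine sites of Zfhx3 given above. Genome copies were not counted for overlapping intervals under 20 bases. These were all those of Pcdh10 and Arid4a, those of Zfhx3 and Pappa and a Neat1 interval in the small intestine, and that of Lars2 in the colon. Overlapping sites were also found on Ptp4a1, Pappa, Lars2, Col6a6 and C230096K16Rik, with colon log2 folds from 3.03 to 4.02. The symbol Ptp4a1 is borne by a pair of annotated genes, of which 1 was shared and the other had a site only in the small intestine.

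On 13 shared genes the sites lay apart. The gaps were 17 bases at Atl2, a GTPase that shapes the endoplasmic reticulum, 169 at Coro1c, 195 at Zswim6 and 578 at Capzb, an actin-capping protein. They were from 2215 bases at Plec to 119267 at Myo1e in the rest, which included Myh9, Mgam, Itpk1, Sdcbp, Map7, Cxadr and Dleu2. At Myh9, a non-muscle myosin heavy chain, the best site was in coding sequence in the colon, 3.81 from 38 reads over 4, and in the first intron in the small intestine, 5.15. Myo1e and Cxadr, a myosin and a junction receptor, divided in the same way, with colon values of 3.15 and 3.51 in coding sequence and small intestine values of 4.46 and 3.99 in the first intron. A shared gene was thus not always a shared position.

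**Figure D4:**
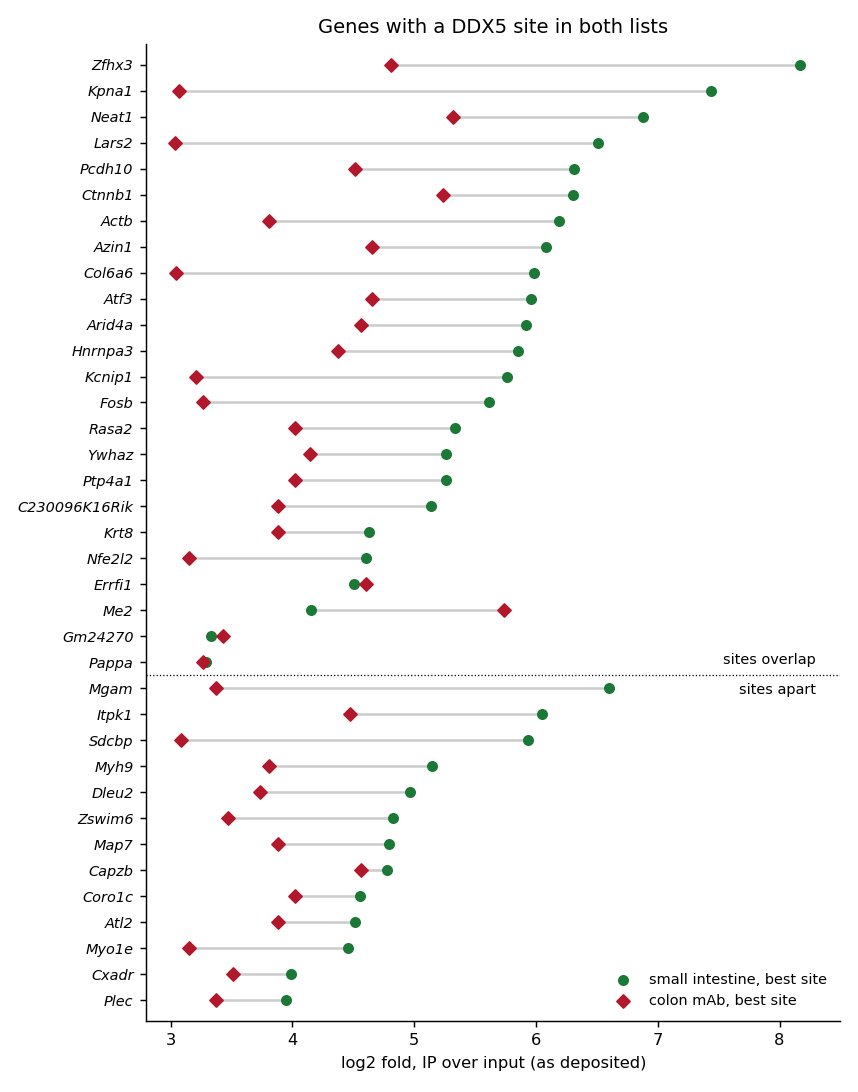
Genes with a site in both lists (37 of the 39), with the deposited log2 fold of IP over input of the best site on the x axis (green circles, small intestine, red diamonds, colon mAb). Genes above the dotted line have overlapping sites, and the 13 below do not. The colon value is the higher for Errfi1, Me2 and Gm24270 alone of those plotted.

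A site in the small intestine only was found on 428 genes, and for most of them the colon was not empty. A called mAb peak was present on 352, and its best log2 fold was above 1 on 318 of these and above 3 on 42, with a median of 2.15. On 232 of the 352, however, no peak with traced reads reached 10 IP reads. Peaks without traced reads, whose depth is unknown, may lie on the same genes. On 76 of the 467 small intestine genes (16.3%, interval 13.04 to 19.9) no mAb peak was called, and on 72 neither colon list had one. RNA levels are not measured in these files, so a transcript absent from the colon cannot be told apart from one that is present and not bound.

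Genes of lipid uptake and lipoproteins were the plainest case. Of 34 in the list, 10 had a site in the small intestine, and 9 of the 10 had no called colon peak, against 16.3% of all small intestine genes. The small intestine list holds sites only, so no share over all its called genes can be set beside the 10 of 34 or like counts below. Apob, the structural protein of chylomicrons, had 18 sites up to 5.72. Apoa4 and Apoa1, apolipoproteins, had 8 and 5 sites up to 3.74 and 3.76. Fabp2 and Fabp1, fatty acid-binding proteins of the enterocyte, had 8 and 3 sites up to 4.67 and 3.66. Mttp, which loads lipid onto apolipoprotein B, had 4 sites up to 4.08. Fabp6, Rbp2 and Npc1l1, carriers of bile acids and retinol and the cholesterol transporter, had 1 or 2 sites each, from 3.08 to 3.92. Dgat1, which makes triglyceride, had 7 sites up to 4.94 and was the exception, with 1 called colon peak of 4 IP reads at 1.56. In the colon, the list had a site on Acsl3 alone, a long-chain acyl-CoA synthetase, at 4.61 from 33 reads over 2.

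Digestive enzymes and brush border proteins gave 15 of 32 genes in the small intestine and 1, Mgam, in the colon. Of the 15, 8 had no called colon peak, among them Slc5a1, the sodium-glucose transporter, with 12 sites up to 7.36, and Sis, sucrase-isomaltase, with 9 up to 4.30. By contrast Ezr, ezrin, and Vil1, villin, which shape microvilli in both tissues, had 5 and 7 small intestine sites up to 4.98 and 4.10. They had 30 and 20 called colon peaks, of at most 14 and 10 traced IP reads, with no site. Among 18 markers of small intestine epithelium, 10 had a small intestine site and 2 a called colon peak. All of the 10 but Reg3b were already counted among the lipid or digestive genes above, so they add little to those lists. Of 19 markers of colon epithelium, 12 had a called colon peak and 1 a colon site, Muc2, the gel-forming mucin, at 4.02 from 11 reads over 1. Clca4b was the only colon marker with a small intestine site, 5.66, and had no called colon peak.

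Fabp1 and C3 are shown as the genes that the study followed in each tissue, and the site of each printed here lay in coding sequence. Fabp1 is at chr6:71201711-71201773 on the plus strand in exon 2, with 3.66 in the small intestine. C3, the central complement component, is at chr17:57210176-57210253 on the minus strand in exon 30, with 4.47 from 15 IP reads and 1 input read in mAb and a site at 4.07 in rAb. No base is in capitals, since neither was marked in the other tissue.
Fabp1: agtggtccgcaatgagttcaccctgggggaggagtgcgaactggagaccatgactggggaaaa
C3: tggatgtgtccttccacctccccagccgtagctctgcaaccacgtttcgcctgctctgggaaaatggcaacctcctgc

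For genes active in every cell, most members of the lists had a called colon peak and few a colon site. Of 54 splicing factors and hnRNPs, 22 had a small intestine site and 52 a called colon peak, and only Hnrnpa3 had a colon site. Hnrnpk had 1 site at 6.99, Rbm25 had 4 up to 5.65 and Son, which sits in nuclear speckles, 2 up to 5.61. Of 25 heat shock and ER chaperones, 11 had a small intestine site and none a colon site, though 15 had a called colon peak. Hsp90aa1, a cytosolic HSP90, had 4 sites up to 5.62 and, like Dnaja1, no called mAb peak, and Hsp90b1, Hspa5 and P4hb, chaperones of the endoplasmic reticulum, had 8, 4 and 3 sites up to 4.70, 5.15 and 4.90. Of 48 translation factors and tRNA synthetases, 9 had a small intestine site and none a colon site, though 31 had a called colon peak. Over all genes with a called mAb peak, 2.66% held a site. None of 15 called chaperones, none of 31 called translation genes and 1 of 52 called splicing genes are near that background.

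Among actomyosin and junction genes, 5 and 3 had a site in both lists, and 8.35% of all small intestine genes did. Of 40 actomyosin genes, 14 had a small intestine site and 5 of these, Actb, Krt8, Myh9, Myo1e and Plec, also a colon site. These were 12.5% of the 40 with a called colon peak, against 2.66% of all genes with one. The 5 had from 13 to 60 called colon peaks each, against a median of 6 over all shared genes. The part of the number of called peaks in this was not tested. Of 38 junction genes, 12 had a small intestine site and Ctnnb1, Cxadr and Sdcbp both, out of 32 with a called colon peak. Cdh1, for E-cadherin, had 41 called colon peaks and no colon site, the best at 2.89, and 4 small intestine sites up to 7.08. Among 24 immediate-early genes, 21 had a called colon peak and 11 a small intestine site. Atf3 and Fosb had a site in both lists. Mcl1 and Btg2, an inhibitor of apoptosis and an antiproliferative gene, had a colon site only, at 4.02 from 11 reads and 3.65 from 17. Jun had 6 small intestine sites up to 5.20. Egr1 and Fos had colon peaks at 3.73 and 3.56 that missed the cutoff on −log10 p, with 9 and 8 IP reads. In 32 Wnt and crypt genes, Ctnnb1 was shared, Lgr4 was in the small intestine only at 3.51, and Rnf43, a ligase that removes Wnt receptors, in the colon only at 3.26.

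**Figure D5:**
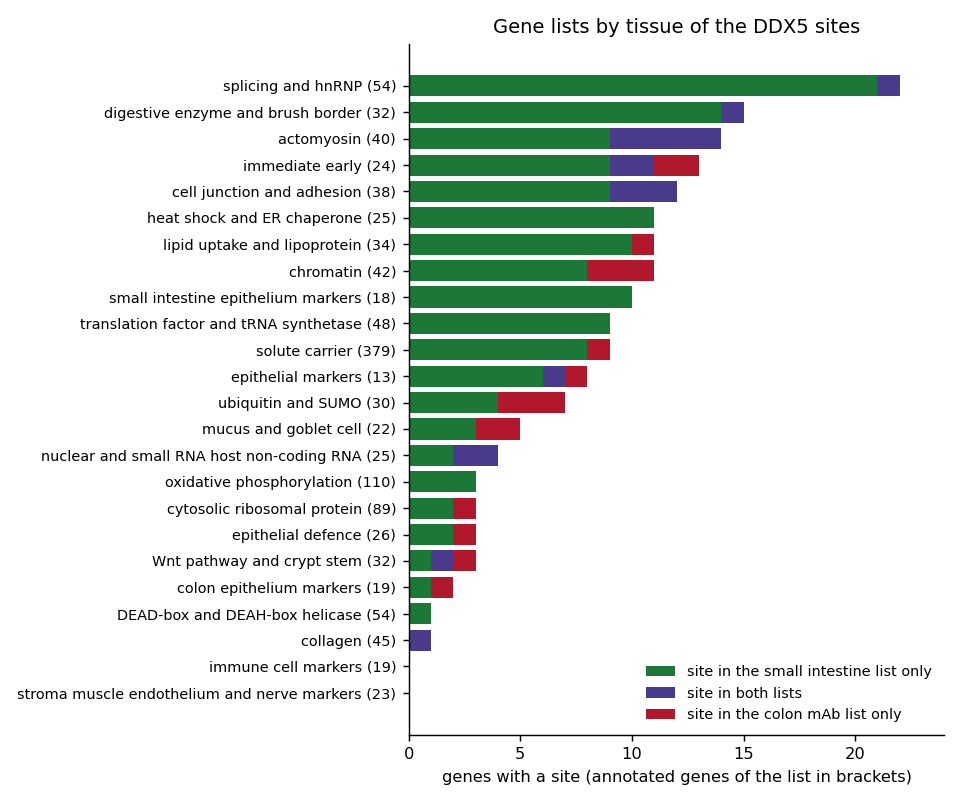
Number of genes of each list shown with a site in the small intestine only (green), in both (purple) or in colon mAb only (red), with the annotated members of the list in brackets on the y axis. Chaperones, translation factors and small intestine markers have no red or purple, and actomyosin genes have 5 purple of 14. Over all genes with a called mAb peak, 2.66% held a colon site. Some genes are in several lists.

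The small intestine genes with the highest folds were of many kinds. Prdm13, a zinc finger factor, had 2 sites up to 9.15, Mthfd1l, of folate metabolism, 3 up to 7.76, and Kcnd3os, an antisense RNA, 3 adjoining intervals of 8, 13 and 6 bases at 7.401. Ostm1 had 2 sites up to 7.23, Fam124a 2 up to 7.02, Npas2 1 at 6.88 and Asah2, a brush border ceramidase, 2 up to 6.86. Both Asah2 sites hold the GAA run described below. The higher was 100% soft-masked, and its words of 20 bases occur a median of 1985 times in the genome. Malat1, an RNA of nuclear speckles, had the most sites, 54 up to 6.27. In the colon it had 29 called peaks of up to 180 IP reads, above the 10 of the shallowest colon site, and the highest log2 fold was 1.68. Muc13, a membrane mucin, and 2900026A02Rik had 20 sites each, up to 6.33 and 6.30.

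Purine repeats were found at some small intestine sites and at none of the fewer colon sites, with intervals that overlapped. A run of 4 GAA triplets, in any phase, was inside 26 of its 1278 sites (2.03%, interval 1.33 to 2.97) on 22 genes and inside none of the 201 colon mAb sites (interval up to 1.82%). It was inside 15 of 16455 called mAb peaks, whose median log2 fold was 1.15 and highest 3.56, with up to 107 IP reads. In windows of 150 bases, which do not depend on the width of a peak, the run was at 32 small intestine sites (2.50%, interval 1.72 to 3.52), no mAb or rAb site, and 0.164% of called mAb peaks. On the opposite strand it was at 1 small intestine site. Of the 26, 17 were in distal introns of 15 genes, with a median log2 fold of 6.24 against 5.22 for all 175 distal intron sites, and 7 were in coding sequence of Anks4b, Cdk11b, Hsp90b1, Lgals4, Rbm25 and Usp34. Repeats limit these values: 22 of the 26 were more than 50% soft-masked and in 18 the words of 20 bases occurred more than 1 time in the genome, and only 2 overlapped a called mAb peak. Their assignment was made by the authors under a paired-end protocol in the small intestine and a single-end protocol in the colon, and the part of this in the difference was not tested.

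A distal intron and a coding example are shown with the GAA run in capitals. Slc5a1, in intron 2 at chr5:33118637-33118702 on the plus strand, had a log2 fold of 7.36, and Hsp90b1, in exon 17 at chr10:86691606-86691694 on the minus strand, had 4.49.
Slc5a1: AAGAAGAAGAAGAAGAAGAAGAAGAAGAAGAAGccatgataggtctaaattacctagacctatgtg
Hsp90b1: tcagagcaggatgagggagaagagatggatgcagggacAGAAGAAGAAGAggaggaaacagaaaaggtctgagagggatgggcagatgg

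A mature microRNA lay under 7 of the 1278 small intestine sites and 1 of the 201 colon mAb sites, at different microRNAs. Sites covered every base of mature miR-194-5p at both of its genes, with log2 folds of 6.41 and 5.92 at Mir194-1 (chr1:185313325-185313346) and 5.91 and 5.70 at Mir194-2 (chr19:6264658-6264679). They also covered miR-215-5p at 5.81 and miR-142a-3p at 6.04, on chr1:185313610-185313630 and chr11:87756903-87756925, all on the plus strand. The mature sequence of miR-194-5p is identical at its genes, so its bases cannot tell which gene a read came from. miR-194 and miR-215 are microRNAs of the intestinal epithelium, and miR-142a is known from blood cells. No peak was called at these 4 hairpins in mAb or rAb. At miR-1938, the other microRNA under a small intestine site, the log2 fold was 3.78 and 1 mAb peak was called. In the colon, 1 site covered 19 of the 21 bases of miR-27a-3p at chr8:84208727-84208747 on the plus strand, with 3.15 from 12 IP and 2 input reads, and no small intestine site was there. Called mAb peaks on mature microRNAs numbered 18, over 26 microRNAs, of which this was the only site. The RefSeq sequences are given with the seed, bases 2 to 8, in capitals, and no seed is shared between them.
miR-194-5p: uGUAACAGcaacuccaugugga
miR-215-5p: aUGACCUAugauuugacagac
miR-142a-3p: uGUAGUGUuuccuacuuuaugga
miR-27a-3p: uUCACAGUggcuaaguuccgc

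A site in the colon only was found on 99 genes, with a median best log2 fold of 4.02, and 65 of them had 1 site. In all, 43 of the 99 had an rAb site, against 6 of the 39 shared genes and 9 of the 428 small intestine genes. Ribosomal RNA was a part of it: 7 of the 99 were genes of rRNA, and 22 of the 163 colon sites without overlap matched 5S-like rRNA, as did 13 of the 1278 small intestine sites and none of the overlapping sites. Gm23806, with 5 sites, and n-R5s2, with 3, are such genes, and the 5 sites of Slc22a22 in an intron matched too. The rRNA sequences searched were mainly of 5S, so likeness to other rRNA was not tested, at the overlapping sites or elsewhere. Of the highest folds, Mrpl3 at 6.02, Trappc9 at 5.81 and Ak7 at 5.29 held at the site a sequence of 13 bases that recurred at colon mAb sites of 4 genes. Its origin is not known here, and it was not compared with any adapter.

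The colon sites without these marks, which do not cover all rRNA, were on genes of several functions. Pdlim5, a scaffold of the actin cytoskeleton, had 2 sites in its first intron up to 5.02 from 22 reads over 1, and Rhbdf1, a rhomboid family protein of EGF receptor ligand trafficking, a pair of 14-base and 15-base intervals there at 5.47 from 30 reads over 1. Kctd20 had 1 site, at 4.96. Chromatin proteins gave Baz2a at 3.89 from 30 reads over 3, and Baz2b and Chd7 at 3.89 from 10 over 1, and 8 other genes of that list had a site in the small intestine only. Of 30 ubiquitin and SUMO genes, Usp8 at 4.26, Sumo3 at 3.50 and Ubr4 at 3.05 were colon only and 4 small intestine only, with none shared. Over all genes, 28.3% of colon genes and 8.35% of small intestine genes were shared, so lists this small cannot be told apart from that. Phgr1, an epithelial marker, had 1 site at 3.15 from 12 reads over 2, and St6galnac6, which adds sialic acid to glycans, 1 at 4.02. Rpl5 was the only cytosolic ribosomal protein gene of 89 with a colon site, at 3.73, and Rpl4 had one in the small intestine. Ddx5 itself had 14 called mAb peaks and 6 called rAb peaks, none a site, and none in the small intestine list.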

How the data were processed

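Peak lists of DDX5 eCLIPseq were deposited for mouse genome build GRCm38. Per the labels, the submitters' processing notes name cutadapt 1.9.1, STAR 2.4.0i and SAMtools 1.4.1, and the authors removed reads of repeat elements before alignment and called peaks with CLIPper. The deposited log2 fold is IP over input reads normalized for depth, and the deposited −log10 p tests the same reads. For the small intestine the authors merged the replicates by Irreproducible Discovery Rate and kept peaks above 3 on each scale, whereas the colon lists hold all called peaks. The files hold no counts, and the total depth is unknown. Whole reads were traced from the paired values only where −log10 p was above 0 and below its cap. In the mAb list this was done at 99.2% of 13011 such peaks, and an input of 1 may stand for 0. Read counts given here leave out all other peaks. Each colon list bears a mark of merged replicates, but only 1 CLIP sample per antibody is labelled. A list that no sample label names was not used here, nor any values per replicate.

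Each peak was given 1 gene and region of GENCODE M21, with priority to coding sequence, 5′ UTR, 3′ UTR, non-coding exon, intron within 500 bases of an exon and other intron. A first intron is intron 1 of the assigned transcript. Ribosomal RNA matches (20 bases at 90% identity to 65 sequences, BLAST+ 2.17.0), a sequence of 13 bases repeated at colon mAb sites, soft-masked bases and genome copies of 20-base words were marked, not removed. The 65 sequences lacked complete large rRNAs, and the sequence of 13 bases was not compared with adapters. Adjoining intervals counted as separate sites. Genes named were all shared genes, the 10 highest folds and 5 most sites of each tissue-only set, up to 8 listed genes a set, and C3, Fabp1 and Ddx5. Some genes that this rule selects are not reported here. The GAA run, the G-run pattern, the first-intron split and some genes named were chosen after values were seen, and the members and lists were chosen with earlier results of these data known. Python 3.11.15, pandas 2.3.3, SciPy 1.17.1 and pysam 0.24.0 were used, and the overlap and tracing steps were tested on simulated data. Alternatives are given in the closing section.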

Additional observations from a re-analysis of the deposited data

How the results depend on the processing

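Across 16 alternatives and 9 results, 111 of 144 values stayed near those reported and 33 moved. Some of the 111 could not move, so the tally does not measure robustness. Rules of strand and overlap length do not enter the gene counts. Looser colon cutoffs do not enter rho, overlap with a called peak or genes without one. Counting all overlapping genes does not enter the counts of positions. Small intestine sites overlapping a colon site, colon sites overlapping a small intestine site, and shared genes were 30, 24 and 23 with −log10 p of at least 5 in both lists, 24, 19 and 17 with log2 fold of at least 4, and 94, 77 and 63 with a colon log2 fold of at least 1. They were 457, 376 and 391 with any called colon peak, and 9, 7 and 15 with the rAb list in place of mAb. The share of small intestine genes that were shared was 4.96%, 4.86%, 13.5%, 83.7% and 3.21% under these in turn. The share of colon genes was 7.53% with any called peak and 13.8% with rAb. With a reciprocal overlap of 50%, 26 small intestine sites overlapped a colon site and 198 a called peak. Overlap with a called peak was 235 at log2 fold of at least 4 and 247 with rAb, where 170 genes had no called peak, and rho was 0.243 and 0.309. The share of overlapping colon sites in a first intron was 31.2% at a colon log2 fold of at least 1, 26.3% with any called peak, 14.3% with rAb and 67.9% over protein-coding genes. The cause of these moves was not tested beyond what each setting changes in the lists. Leaving out Neat1, peaks of at least 20 bases, the first-intron share, the rAb comparison and the GAA run were chosen after seeing the data.

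No paired analysis was possible because the small intestine replicates were merged into 1 list and no value per replicate was used. For the same reason leaving out a replicate was not run. Few reads limit the colon values, whose sites began at 10 IP reads.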
